A study of Mus musculus with 3 samples.

Results

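The peaks described here are 6054 5-hydroxymethylcytosine (5hmC) peaks of mouse bone marrow that lie within 500 bp of a boundary of a protein-coding gene, that is, its start or its end. They are the distinct autosomal intervals of a deposited peak list whose midpoint was at most 500 bp, inside or outside, from the nearest boundary of an mm10 RefSeq protein-coding gene, after overlapping genes were merged. They made up 2.92% (95% Wilson interval, 2.85 to 2.995) of the 207188 distinct autosomal peaks, out of 208468 distinct peaks on all chromosomes. Of the 6054 peaks, 3201 (52.9%) had their midpoint inside a gene and 2853 outside.

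The study profiled 5hmC in 3 marrow samples, 1 of normal bone marrow (BM) cells and 2 of NIDF-AML, an acute myeloid leukaemia induced by 4 mutants together, FLT3-ITD, DNMT3A/R882H, NPMc and IDH2/R140Q. Mouse age and strain, and how the 4 mutants were delivered, are not stated in those sources. The peak lists of the 2 leukaemia samples were the same in all 223267 lines and were counted as 1 list, so there is no replicate error and no comparison of leukaemia with normal marrow. Both lists name a library with index 4 as the treatment, with index 5 or index 6 as the control, and neither the lists nor the labels tie index 4 to a sample, so it may be the normal marrow. Every value below therefore belongs to the index 4 library, relative to controls that may themselves be 5hmC libraries. The list gives positions only, with no height or score per peak, and the read depth is unknown.

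The mark 5hmC is made when TET enzymes oxidise 5-methylcytosine, which in mammals sits mostly on the cytosine of CpG dinucleotides. It is known to be found along the bodies and at the flanks of active genes, and to be scarce at the centre of promoters that are rich in CpG, since these usually carry no methylation to oxidise. TET2 and DNMT3A, whose products act on the mark or its precursor, are recurrently mutated in myeloid leukaemia, as are IDH1 and IDH2.

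The sequences below are the 250 bases before the annotated transcript start, from RefSeq (GRCm38.p6, the assembly of mm10), written 5′ to 3′ on the strand of the gene with each CpG in capitals. The first 5 are shown because a peak midpoint fell in the promoter window, which spans these 250 bases and the next 50. Flt3 and Hoxa9 are shown because they are named in or tied to the leukaemia model and had no peak there.
Cd79a: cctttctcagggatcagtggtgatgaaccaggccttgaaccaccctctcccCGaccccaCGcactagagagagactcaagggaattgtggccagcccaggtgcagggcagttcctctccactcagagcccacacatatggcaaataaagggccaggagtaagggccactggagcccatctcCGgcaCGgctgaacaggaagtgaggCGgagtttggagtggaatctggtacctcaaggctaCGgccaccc
Ptpn6: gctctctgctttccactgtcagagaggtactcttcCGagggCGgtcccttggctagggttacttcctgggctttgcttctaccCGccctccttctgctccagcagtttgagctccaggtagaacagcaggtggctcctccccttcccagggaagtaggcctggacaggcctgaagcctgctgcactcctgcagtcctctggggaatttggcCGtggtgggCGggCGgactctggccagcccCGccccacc
Itgax: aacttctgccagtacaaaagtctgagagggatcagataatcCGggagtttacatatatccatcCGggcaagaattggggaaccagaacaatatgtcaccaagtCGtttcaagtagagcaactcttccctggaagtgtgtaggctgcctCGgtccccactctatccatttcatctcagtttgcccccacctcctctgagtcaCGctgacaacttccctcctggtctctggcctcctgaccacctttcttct
Slc29a1: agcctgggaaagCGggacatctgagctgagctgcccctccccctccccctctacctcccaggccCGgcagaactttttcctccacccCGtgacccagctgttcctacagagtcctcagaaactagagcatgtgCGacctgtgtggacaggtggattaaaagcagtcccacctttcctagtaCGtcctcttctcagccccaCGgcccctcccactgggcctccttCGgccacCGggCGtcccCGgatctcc
Slc6a12: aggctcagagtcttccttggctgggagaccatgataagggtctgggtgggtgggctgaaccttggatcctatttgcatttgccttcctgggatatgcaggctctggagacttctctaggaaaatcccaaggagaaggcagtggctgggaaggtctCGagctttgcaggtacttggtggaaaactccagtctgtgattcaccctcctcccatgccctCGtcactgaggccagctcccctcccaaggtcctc
Flt3: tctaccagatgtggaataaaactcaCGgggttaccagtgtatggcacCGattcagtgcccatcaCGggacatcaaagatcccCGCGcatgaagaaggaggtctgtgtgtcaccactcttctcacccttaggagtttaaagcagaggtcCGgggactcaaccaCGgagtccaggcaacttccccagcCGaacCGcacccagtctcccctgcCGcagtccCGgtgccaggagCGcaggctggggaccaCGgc
Hoxa9: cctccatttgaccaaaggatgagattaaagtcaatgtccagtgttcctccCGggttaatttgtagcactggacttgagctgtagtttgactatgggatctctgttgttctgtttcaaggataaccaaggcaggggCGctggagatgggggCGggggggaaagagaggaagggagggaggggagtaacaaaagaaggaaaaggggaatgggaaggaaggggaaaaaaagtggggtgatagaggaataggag

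Cd79a encodes part of the signalling unit of the B cell antigen receptor; its printed bases lie at chr7:24897247-24897496 on the plus strand and hold 6 CpG. The peak there, chr7:24897476-24897588, had its midpoint 36 bp after the transcript start. Ptpn6 encodes a tyrosine phosphatase that damps signalling in blood cells; its bases lie at chr6:124738710-124738959 on the minus strand and hold 7 CpG. The peak, chr6:124738696-124738840, was centred 58 bp before the start. The integrin gene Itgax, a marker of dendritic cells, has 5 CpG at chr7:128129300-128129549 on the plus strand, and its window peak, chr7:128129352-128129416, was centred 165 bp before the start. For the nucleoside transporter gene Slc29a1, with 10 CpG at chr17:45599619-45599868 on the minus strand, the peak chr17:45599824-45599880 was centred 233 bp before the start. The betaine and GABA transporter gene Slc6a12 has only 2 CpG at chr6:121342324-121342573 on the plus strand, and its peak chr6:121342568-121342616 was centred 19 bp after the start. The Flt3 promoter (chr5:147400490-147400739, minus strand) holds 13 CpG and the Hoxa9 promoter (chr6:52227371-52227620, minus strand) 3, and neither window had a peak midpoint. In the ratio of observed to expected CpG over the 300-base window, where higher means closer to a CpG island, Flt3 had 0.647, Slc29a1 0.526, Ptpn6 0.282, Cd79a 0.314, Hoxa9 0.280, Itgax 0.275 and Slc6a12 0.0861. The 5 windows printed for a peak were chosen from more, and CpG-richer promoters also held one, such as that of Prrt3 (0.798). Of the 2 printed windows without a peak, Hoxa9 lay within the range of those 5 and Flt3 above it.

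Peaks were denser around gene boundaries than over the autosomes as a whole, and with all boundaries pooled they thinned toward the boundary within the 500 bp. On the gene side of starts the order was the reverse, with the first 100 bp 1.35 times as dense as 400 to 500 bp (1.09 to 1.67). The zone held 170 peaks per Mb (95% exact Poisson interval, 166 to 174) against 86.2 over the 2403.26 Mb of autosomal sequence, 1.97 times as many. Inside genes the density was 174 per Mb (168 to 181), and outside 166 (160 to 172). With both sides pooled, the zone was not denser than the sequence up to 5000 bp away. There, 207 peaks per Mb (204 to 209) lay at 500 to 2500 bp and 172 (170 to 174) at 2500 to 5000 bp. The pooled zone had 0.822 times the density of 500 to 2500 bp (0.800 to 0.846). The sides differed at 2500 to 5000 bp, with 223 peaks per Mb (220 to 227) inside genes and 117 (114 to 120) outside. Outside genes the zone was thus denser than sequence that far away. Counting both sides and all boundaries, the density went from 125 peaks per Mb in the first 100 bp to 198 at 400 to 500 bp, a ratio of 0.634 (95% exact interval of a ratio of rates, 0.583 to 0.690). The limit of 500 bp cuts through sequence of nearly even density: 203 peaks per Mb lay at 450 to 500 bp and 196 at 500 to 550 bp. These intervals and all below cover counting error only and treat peaks as independent, which neighbouring peaks of 1 library are not.

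Strand was known for 16457 of the 20560 autosomal protein-coding genes, which split the 37045 boundaries of the merged genes into 14959 starts, 14763 ends and 7317 of unknown direction. Of the 6054 peaks, 2000 (33.0%) lay at starts, 2816 (46.5%) at ends, 1236 (20.4%) at boundaries of unknown direction and 2 where a start and an end coincide. Starts carried fewer peaks than ends although their numbers were nearly equal. Per Mb, starts had 140 peaks (134 to 147) and ends 198 (190 to 205), a ratio of 0.711 (0.671 to 0.753). With both sides pooled, starts and ends at 500 to 2500 bp had 209 and 204 per Mb, a ratio of 1.03 (0.999 to 1.06). That pooled value joins opposite differences at 500 to 1000 bp. There, inside genes, starts had 186 peaks per Mb (176 to 196) and ends 267 (255 to 280.1), and outside, starts had 217 (206 to 229) and ends 167 (157 to 177). The lower density at starts was thus on the gene side and continued past 500 bp. Within 500 bp, inside genes, the ratio of starts to ends was 0.541 (0.498 to 0.588), and outside it was 0.948 (0.873 to 1.03), whose interval includes equality.

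**Figure D1:**
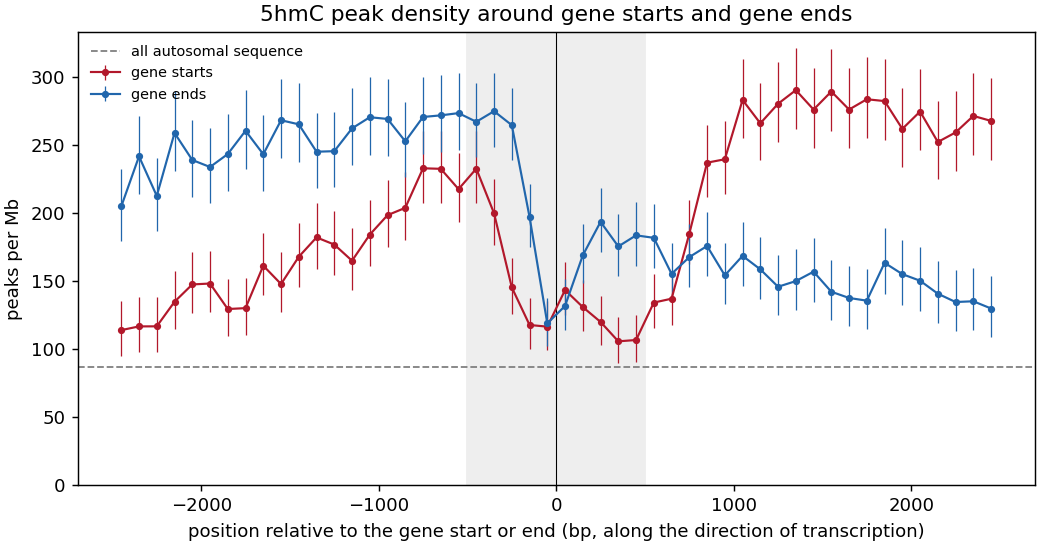
Density of 5hmC peaks (peaks per Mb, vertical axis) in 100-bp steps around gene starts (red) and gene ends (blue), with position along the direction of transcription in bp on the horizontal axis; bars are 95% exact Poisson intervals, the grey band is the 500 bp zone and the dashed line the density of all autosomal sequence (86.2 per Mb). Both curves are low at the boundary, and the low stretch at starts continues into the gene, with 105 to 106 per Mb at 300 to 500 bp.

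Around starts, the low stretch reached from just upstream into the first part of the gene. Outside, the density was 232 peaks per Mb at 400 to 500 bp before the start and 116 in the last 100 bp. Inside, it was 143 in the first 100 bp, 106 at 400 to 500 bp, 186 at 500 to 1000 bp and 279 at 1000 to 1500 bp. The 500 bp inside the start therefore held 121 peaks per Mb against 251 at 500 to 2500 bp of the same genes, a ratio of 0.483 (0.450 to 0.518). The 500 bp before the start held 161 against 167 farther out, a ratio of 0.967 (0.904 to 1.03) that does not separate the near from the far sequence.

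Around ends, the dip was narrow and peaks were dense right up to it. Inside the gene, 267 peaks per Mb lay at 400 to 500 bp before the end, 264 at 200 to 300 bp and 119 in the last 100 bp. Beyond the end, there were 131 in the first 100 bp, 193 at 200 to 300 bp and 183 at 400 to 500 bp. Over the 500 bp, the inside held 224 peaks per Mb against 252 at 500 to 2500 bp (ratio 0.888, 0.841 to 0.938). The outside held 170 against 152 farther out (1.11, 1.04 to 1.19), the only one of the 4 zones, inside or outside of starts or ends, whose interval lay above 1. In the first 100 bp, starts and ends had alike densities, 130 and 125 per Mb, with a ratio of 1.04 (0.898 to 1.203).

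By chromosome, the lower density at starts was widespread. Of the 18 autosomes with strand in the table used here, the start zone was less dense than the 500 to 2500 bp around starts in 18, and less dense than the end zone in 17, the exception being chromosome 13 with 114 against 100 peaks per Mb. The end zone was less dense than its own 500 to 2500 bp in 10 of the 18. The share of a chromosome's peaks that lay within 500 bp of a gene boundary ran from 1.64% on chromosome 13 to 4.54% on chromosome 7.

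**Figure D2:**
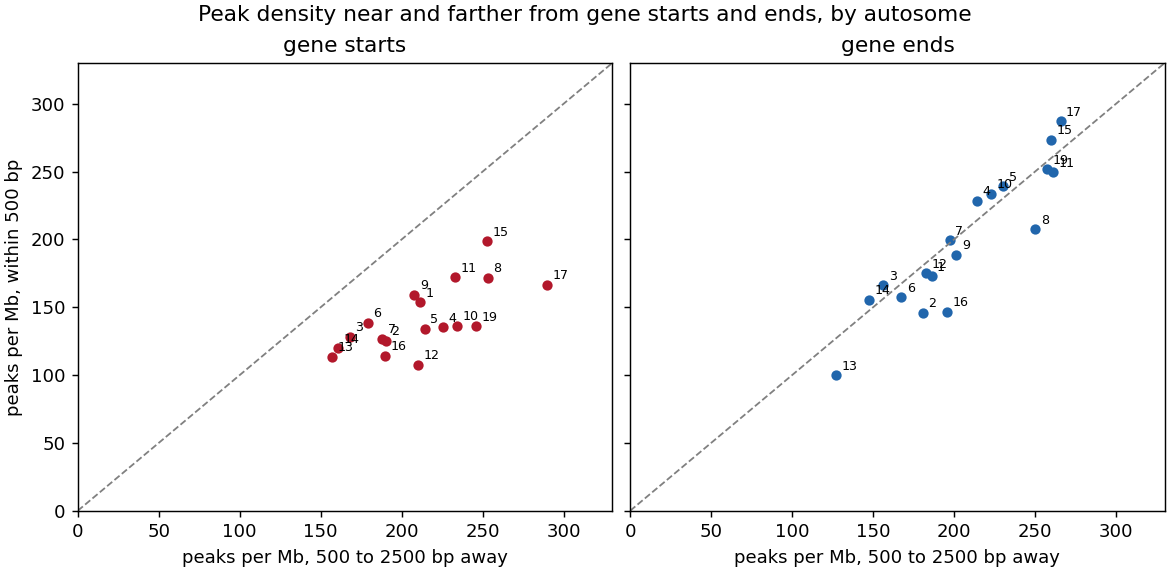
Peak density within 500 bp (vertical axis, peaks per Mb) against the density 500 to 2500 bp away (horizontal axis, peaks per Mb), for gene starts (left) and gene ends (right); each point is 1 of 18 autosomes and the dashed line marks equal densities. All 18 points lie below the line for starts, and 10 of 18 for ends.

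The CpG content of the promoter went with whether peaks were present at the start. Promoter windows of 300 bases whose transcript start lay within 50 bp of a gene start with no other gene over it numbered 10950, and 349 of them (3.19%) held a peak midpoint. They were sorted by the observed over expected CpG ratio into 5 groups of 2190, described here from poorest to richest. A peak midpoint was present in 1.14% of the poorest windows (ratio up to 0.15; 0.774 to 1.68), in 6.76% of the second group (0.150 to 0.362; 5.78 to 7.89) and in 5.80% of the middle group (0.362 to 0.675; 4.90 to 6.86). It was present in 1.46% of the fourth group (0.675 to 0.860; 1.04 to 2.06) and in 0.776% of the richest (0.860 to 1.44; 0.485 to 1.24). Windows of low to intermediate CpG content thus held a peak most often, and both extremes rarely.

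The surroundings of these promoters ran the other way. At 500 to 2500 bp from the transcript start, the density rose with each group, from 69.3 peaks per Mb in the poorest through 152, 253 and 294 to 312 in the richest. Within 500 bp it was 69.4, 203, 182, 94.5 and 56.6. The near density was thus the same as the surrounding one in the poorest group (ratio 1.00, 0.833 to 1.198) and above it in the second (1.34, 1.198 to 1.49). It was below it in the middle (0.720, 0.645 to 0.801), the fourth (0.322, 0.278 to 0.371) and the richest group (0.181, 0.150 to 0.217). The downstream side was the emptier one in CpG-rich promoters: the richest group had 92.2 peaks per Mb in the 500 bp before the start and 21.0 in the 500 bp after it. In the poorest group the order was the opposite, with 43.8 before and 94.98 after. The second group had 193 and 213, the middle group 237 and 126, and the fourth 132 and 56.6.

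**Figure D3:**
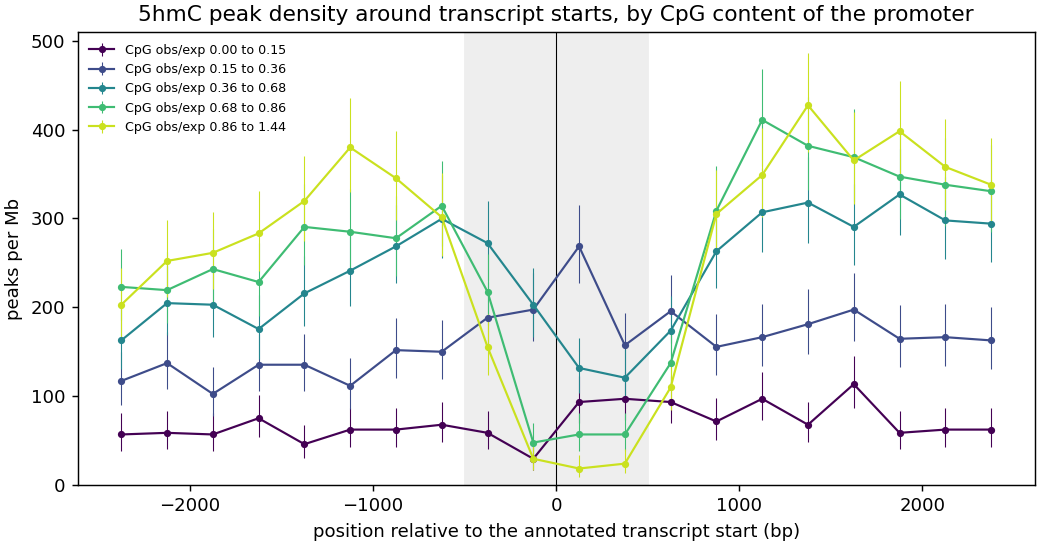
Peak density (peaks per Mb, vertical axis) in 250-bp steps by position from the annotated transcript start (bp, horizontal axis) for 5 groups of 2190 promoters by observed over expected CpG; bars are 95% exact Poisson intervals and the grey band is the 500 bp zone. The richest group falls from 312 peaks per Mb at 500 to 2500 bp to 56.6 within 500 bp, while the second group rises from 152 to 203.

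Within the windows that held a peak, CpG were slightly denser under the peaks than in the rest, with all CpG groups pooled. Under the 349 windows' peaks there were 3.69 CpG per 100 bp against 3.38 in the uncovered bases, a ratio of 1.09 (1.01 to 1.18), and 81.7% of the windows had at least 1 CpG under a peak. From the poorest to the richest group the ratio was 1.97 (1.05 to 3.56, 25 windows), 1.37 (1.17 to 1.60, 148), 1.11 (0.990 to 1.25, 127), 0.831 (0.677 to 1.01, 32) and 0.723 (0.571 to 0.907, 17). In CpG-poor promoters the peaks thus sat where CpG were denser, and in the richest group where CpG were sparser. Peak edges are rounded by up to several bp, so these values are approximate.

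Short motifs were searched on both strands of the same windows, as letters only. TATAAA, the core of the TATA box, was in 9.46% of windows with a peak (6.81 to 12.98) and 16.3% of those without, against 16.1% of all 10950. CCAAT, the letters bound by NF-Y, was in 33.2% (28.5 to 38.3) against 41.4%, with 41.2% over all windows. GGAAGT, an ETS-type core, was in 28.7% (24.2 to 33.6) and 25.8%, with 25.9% over all. The E-box CACGTG was in 9.46% (6.81 to 12.98) and 7.77%, with 7.83% over all, and ACGTG, which every CACGTG also contains, in 24.4% (20.1 to 29.1) and 20.3%, with 20.4% over all. Among the 4380 windows of the second and middle CpG groups, which held 275 of the windows with a peak, TATAAA was in 10.9% of windows with a peak and 18.7% without, and CCAAT in 33.1% and 42.2%. The difference was not tested, and these 2 groups still span observed over expected ratios of 0.150 to 0.675, so windows with and without a peak were not matched on CpG content.

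By gene, 5033 of the 19868 autosomal protein-coding genes with at least 1 boundary outside other genes (25.3%) had a peak within 500 bp of such a boundary. A start peak was found in 1915 of 14988 genes (12.8%) and an end peak in 2605 of 14793 (17.6%). Most had only 1: at the start, 1739 genes had 1 peak, 171 had 2 and 5 had 3, and at the end 2238 had 1, 359 had 2 and 8 had 3. Genes with an end peak had a start peak more often than genes without one. Among 12710 genes over 1000 bp with both boundaries free, a start peak was found in 21.4% (19.7 to 23.1) of those with an end peak and 11.5% (10.9 to 12.1) of those without. In all, 501 of these genes (3.94%) had both, 1188 a start peak only, 1845 an end peak only and 9176 (72.2%) neither. Peaks near a boundary also came with peaks a little farther away: 70.7% of starts with a peak had another at 500 to 2500 bp, against 42.8% of starts without, and for ends the shares were 80.4% and 35.4%.

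The 5 genes with 3 peaks at the start were Ikzf1, Slc6a12, Tmem39b, Paqr6 and B430306N03Rik. Ikzf1 encodes Ikaros, a zinc finger factor of lymphoid and early blood cells. Its peaks were chr11:11684450-11684532, chr11:11684927-11685015 and chr11:11685335-11685441, centred 471 bp before the start and 10 and 427 bp after it. At Slc6a12 the centres were 438 bp before and 19 and 499 bp after the start, at Tmem39b 449 bp before and 16 and 320 bp after. At Paqr6, a progestin and adipoQ receptor family gene, they were 440 and 40 bp before and 433 bp after. B430306N03Rik, an uncharacterised gene of chromosome 17, had peaks 483 and 35 bp before and 318 bp after. In each of these 5 genes 1 peak sat within 40 bp of the start and the others more than 300 bp to either side. The genes were picked for 3 peaks within 500 bp of the start, and whether the layout goes beyond that choice was not tested. The next by the ranking had 2 each: Adgrg3, an adhesion receptor gene of granulocytes, Cd79a, Gm28729, the cytokine gene Il17c, and Itgax. Adgrg3 and Il17c also had 2 peaks at the end, and Cd79a 1.

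The 8 genes with 3 peaks at the end were Rab13, Zbtb12, Spef1l, Prrt3, Hsd3b7, Pip4k2c, Grcc10 and Coa3. Rab13 encodes a small GTPase of membrane traffic, and its peaks were centred 308 bp before the end and 45 and 469 bp beyond it. Hsd3b7, an enzyme gene of bile acid synthesis, had the like arrangement, with centres 347 bp before and 46 and 462 bp beyond. In Zbtb12, a zinc finger gene, the centres were 452 and 136 bp before and 225 bp beyond. Grcc10 ends next to the start of Ptpn6, and the 2 genes share the peak chr6:124738696-124738840, which is centred 415 bp beyond the end of Grcc10 and covers the first base of Ptpn6. The other peaks of Grcc10 were centred 34 and 402 bp inside the gene. Next in rank were Btg2, an antiproliferative gene, and Rhog, a small GTPase gene, with 2 end peaks each.

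Among 25 gene lists, those of blood cells and ribosomal proteins stood at the top and those of olfactory and vomeronasal receptors at the bottom. In all, 15 lists had a share above the 25.3% of all genes, 9 lists a share above the 12.8% for starts and 14 above the 17.6% for ends. The lists were put together with earlier results of these data known, some share genes, and no test was made of them, so the shares are descriptions with their Wilson intervals. Across all 19868 genes the mean number of peaks per gene was 0.321 and the median 0.

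**Figure D4:**
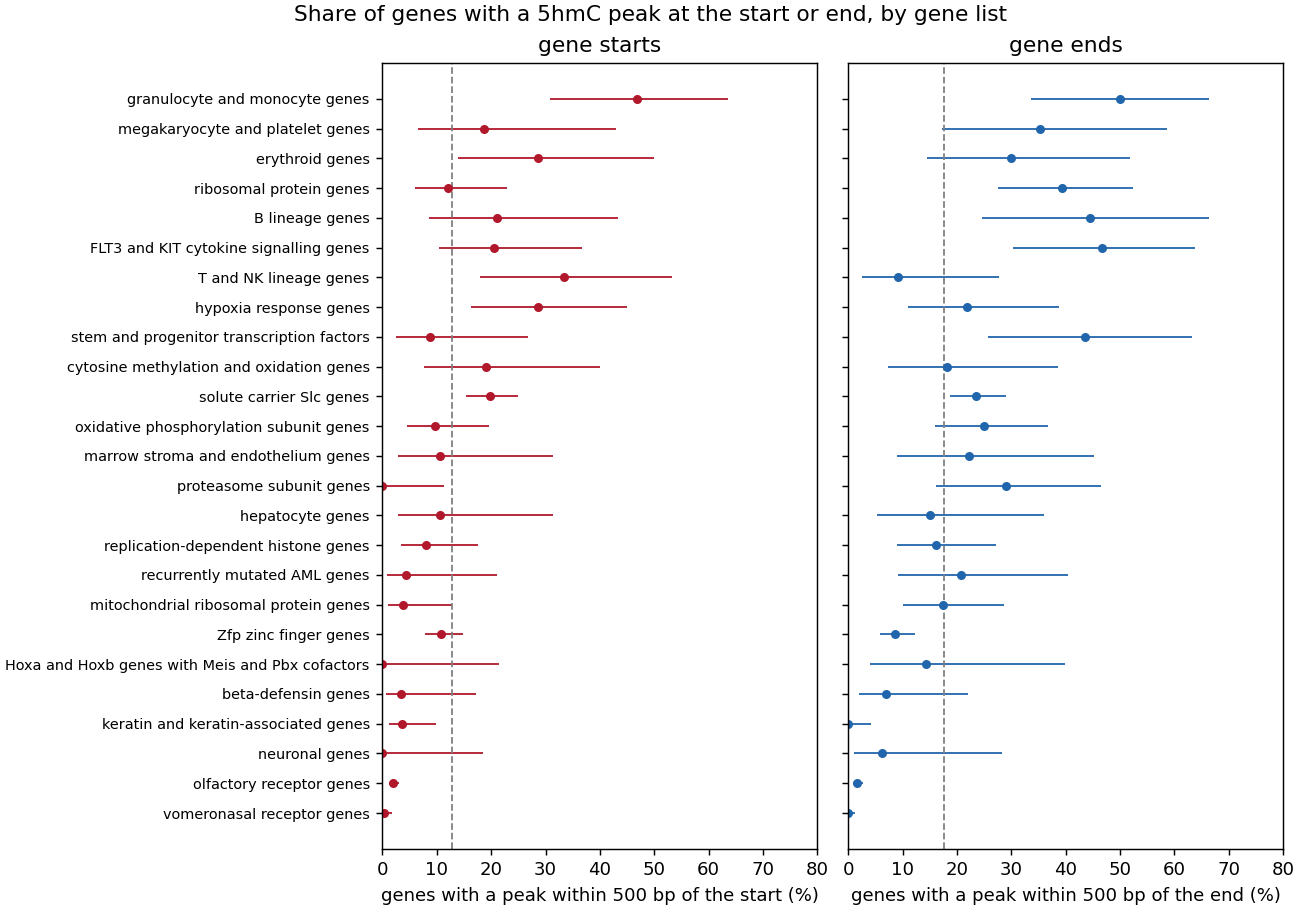
Percent of genes in each of 25 lists with a 5hmC peak within 500 bp of the start (left, red) or the end (right, blue); bars are 95% Wilson intervals, the dashed lines the shares of all genes (12.8% and 17.6%), and lists run from the highest to the lowest share for either boundary. Granulocyte and monocyte genes are at 46.9% and 50.0%, and olfactory receptor genes at 1.94% and 1.61%.

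Granulocyte and monocyte genes, the marrow's largest mature class, had the highest share: 30 of 44 (68.2%, 53.4 to 80.001) had a peak at a boundary, with 15 of 32 at the start (46.9%) and 16 of 32 at the end (50.0%). Their median was 1 peak per gene, against 0 for all genes. Tyrobp, an adaptor of activating receptors, had 4 peaks over both boundaries, and Spi1, the myeloid master factor, and the Fc receptor gene Fcgr3 had 3 each. For Fcgr3 they were chr1:171065952-171066016, 69 bp before the start, and 2 at the end, 433 bp beyond and 464 bp inside. The strand of Tyrobp and Spi1 is not in the table used here. Some granule genes with peaks were named only after their values were seen, so they do not stand for granule genes as a class. They were Elane (2 peaks at the end), Mpo, Ctsg, Lyz2 and Ltf (1 each at the end) and Mmp8 and Ngp (2 each at the start). Cebpa, which encodes a myeloid factor, and Csf2rb, a cytokine receptor subunit gene, had none. Cebpd had none at its only boundary outside other genes.

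Other blood lineages lay between all genes and the granulocyte list, with shares at starts and ends that varied from list to list. Megakaryocyte and platelet genes had 13 of 23 (56.5%, 36.8 to 74.4), with 2 peaks at the end of the platelet glycoprotein gene Gp5, and erythroid genes 16 of 30 (53.3%, 36.1 to 69.8), with 1 at each boundary of the erythropoietin receptor gene Epor. B lineage genes had 12 of 26 (46.2%), 21.1% at the start and 44.4% at the end. Besides Cd79a, Cd79b had 3 peaks and Cd37 and Pou2f2 had 2 each at the end, while Ebf1 and Pax5 had none. T and NK lineage genes had 15 of 33 (45.5%), with 8 of 24 at the start (33.3%, 17.97 to 53.3) and 2 of 22 at the end (9.09%, 2.53 to 27.8), shares whose intervals overlap. Cd5, a T cell surface receptor gene, had 3 peaks, 2 of them at the start (320 bp inside and 220 bp outside). The CD3 chain genes Cd3e and Cd3g had none, and Cd247 none at its start, its end being covered by another gene.

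Stem and progenitor transcription factors had 12 of 29 (41.4%), with 2 of 23 at the start (8.70%, 2.42 to 26.8) and 10 of 23 at the end (43.5%, 25.6 to 63.2), an order opposite to that of the T and NK list, with intervals that just overlap. Ikzf1 with its 3 start peaks and Ldb1 with 1 were the 2 at the start. At the end, Hhex had 2 peaks, 117 and 449 bp beyond the gene, and Myb 1, 352 bp beyond. Runx1 and Runx3 had none at either boundary, and Runx2 none at its end, its start being covered by another gene and not counted. FLT3 and KIT cytokine signalling genes had 7 of 34 at the start (20.6%) and 14 of 30 at the end (46.7%, 30.2 to 63.9). Ptpn6 and the survival gene Mcl1 had 1 at the start and 2 at the end each, and the kinase genes Akt1 and Pik3cd 2 at the end, while Kit and Il3ra had none.

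Of 6 genes tied to the leukaemia model, 1 had a peak at a boundary. Among all genes 25.3% did, and 6 genes are too few to tell from that share. Idh2, which encodes the mitochondrial isocitrate dehydrogenase, had the peak chr7:80095096-80095128, centred 268 bp inside the gene end, and none within 500 bp of its start. Npm1, Dnmt3a, Flt3, Hoxa9 and Meis1 had none. Within 2500 bp of a boundary Idh2 had 5 peaks, Dnmt3a 2, Flt3 and Npm1 1 each, and Hoxa9 and Meis1 none. Recurrently mutated AML genes as a group had 6 of 29 (20.7%, 9.85 to 38.4), with 2 end peaks each at Nf1 and U2af1. This interval includes the 25.3% of all genes. Genes of the Hoxa and Hoxb clusters, taken with the Pbx and Meis cofactor genes, had 3 of 25 (12%, 4.17 to 29.96), among them Hoxa7, with a peak 254 bp inside its end, and Pbx2, with a peak 432 bp beyond its end. None of the 14 with a known free start had a start peak, with a Wilson upper limit of 21.5%. Both intervals of this group include the shares of all genes, 25.3% for either boundary and 12.8% for starts.

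Genes that write, read or erase cytosine methylation had 11 of 29 (37.9%, 22.7 to 56.0). Tet3, which encodes a 5-methylcytosine oxidase, had 2 peaks at the start, chr6:83457128-83457208 and chr6:83457552-83457600, 41 bp inside and 368 bp outside. Dnmt1, the maintenance methyltransferase gene, had 2 at the end, 487 bp inside and 254 bp beyond. The methyl-CpG binding genes Mbd1 and Zbtb4 had 2 and 1, and Dnmt3b and Uhrf1 had none. In this group 4 of 21 had a start peak (19.0%, 7.67 to 40.001) and 4 of 22 an end peak (18.2%, 7.31 to 38.5), and both intervals include the share of all genes.

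In 4 housekeeping groups, as among all genes (12.8% at the start and 17.6% at the end), more genes had a peak at the end than at the start. Ribosomal protein genes had 41 of 82 (50.0%, 39.4 to 60.6), with 7 of 58 at the start (12.1%) and 22 of 56 at the end (39.3%, 27.6 to 52.4). Rpl13a and Rpl18 each had 2 end peaks, at 382 bp inside and 351 bp beyond for Rpl13a and at 408 bp inside and 301 bp beyond for Rpl18. Proteasome subunit genes had 0 of 30 at the start, with a Wilson upper limit of 11.4%, and 9 of 31 at the end (29.0%, 16.1 to 46.6), 2 of the peaks at Psmc5. Oxidative phosphorylation genes had 9.68% at the start (4.51 to 19.5) and 25.0% at the end (16.0 to 36.8), and both intervals include the shares of all genes. Mitochondrial ribosomal protein genes had 3.77% at the start and 17.5% at the end, the latter close to the share of all genes. Hypoxia response genes, which include glycolytic enzymes, had 10 of 35 at the start (28.6%, 16.3 to 45.1) and 7 of 32 at the end (21.9%, 11.0 to 38.8). These 2 intervals overlap, so the order is not settled, and that for ends includes the 17.6% of all genes. Pfkfb4, a regulator of glycolysis, had 2 at each boundary, and Gapdh 1 at each, while Hif1a, Arnt and Egln1 had none. Histone genes, matched by name and so including the variant linker genes H1f8 and H1f10, had 14 of 67 (20.9%).

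Solute carrier genes had 124 of 359 (34.5%, 29.8 to 39.6), with 19.7% at the start and 23.5% at the end, and Zfp zinc finger genes 66 of 377 (17.5%, 14.0 to 21.7), with 10.8% and 8.55%. Marrow stroma and endothelium genes had 9 of 29 (31.0%, 17.3 to 49.2) and hepatocyte genes 7 of 25 (28.0%, 14.3 to 47.6). Both shares were above the 25.3% of all genes, with intervals that include it. The pericyte gene Pdgfrb, of the stroma list, had 4 peaks. Neuronal genes had 2 of 27 (7.41%, 2.05 to 23.4), at Dlg4 and Nefh. Keratin and keratin-associated genes had 9 of 106 (8.49%) and 0 of 86 at the end, and beta-defensin genes 4 of 42 (9.52%). Olfactory receptor genes had 29 of 1094 (2.65%, 1.85 to 3.78), and vomeronasal receptor genes 1 of 346 (0.289%, 0.0510 to 1.62), the single gene being Vmn2r29. Many members of these last families are close copies of each other, and how reads were assigned to such copies is not stated.

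Gene length and the neighbouring gene also went with the peaks. By span, a start peak was found in 6.27% of genes under 2 kb, 15.9% at 2 to 5 kb, 14.8% at 5 to 20 kb, 13.4% at 20 to 100 kb and 9.26% above 100 kb. The shares for end peaks were 9.26%, 23.7%, 20.9%, 17.6% and 11.8%. In every class the end was the more frequent place, and genes of 2 to 20 kb had the most. Olfactory and vomeronasal receptor genes were not separated from these classes.

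Where 2 genes lie within 500 bp of each other, peaks in the gap went with which boundaries face each other. Of gaps up to 500 bp between 2 starts, the arrangement of bidirectional promoters, 4 of 506 held a peak (0.791%, 0.308 to 2.01), or 62.2 per Mb (17.0 to 159). Between 2 ends, 10 of 260 did (3.85%, 2.10 to 6.93; 177 per Mb, 84.7 to 325). Between an end and the next start, 22 of 244 did (9.02%, 6.03 to 13.3; 365 per Mb, 229 to 552). Gaps between starts were also shorter, with a median of 90.5 bp against 183 and 238.5 bp. Densities per Mb do not fully remove this difference, since density changes with the distance from a boundary. Bidirectional gaps had the lowest density. Their interval per Mb lies wholly below that of gaps from an end to a start but overlaps that of gaps between ends. In gaps of 500 to 1000 bp the densities were 134 per Mb (36.5 to 343) between starts, 372 (267 to 505) between ends and 294 (211 to 399) from an end to a start. There the last 2 arrangements stood in the other order, and all 3 intervals overlap. In gaps of 1000 to 5000 bp the 3 arrangements had densities of 246 (209 to 287), 265 (241 to 289.8) and 265 (248 to 284) per Mb, whose intervals overlap.

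The peaks themselves had the same median width as other autosomal peaks, 65 bp, with quartiles of 49 and 81 bp. Of them, 949 (15.7%) stood on more than 1 line of the list, up to 22 lines, against 6.17% of other autosomal peaks. Positions are coarse for many: 60.1% of the peaks lie beyond about 67 Mb on their chromosome, where all starts and ends, counted from 1, are multiples of 8.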

How the data were processed

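Selective chemical labelling captured 5hmC fragments from bone marrow DNA: β-glucosyltransferase added an azide glucose, click chemistry added biotin, and avidin pulled the fragments down before paired-end sequencing on a HiSeq2000, per the labels' protocols. The authors deposited peak positions in bp (chromosome, start, end), called with PICS with a read length of 99 bp, fragments of 200 bp and 250-bp windows moved by 20 bp, per the file headers. The build is mm10, per the submitters' processing notes, with no aligner named in those sources.

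Repeated lines were counted once. Gene spans came from a RefSeq table of GRCm38.p6 (1 span per gene) and strand from its promoter table. The 105 autosomal protein-coding models that start below 3 Mb were left out. Overlapping genes were merged, and a boundary counted for a gene only where no other gene covered it. Densities divide peaks by the length of each zone, with 95% exact Poisson intervals, ratios have exact conditional intervals and shares Wilson intervals. The densities and shares were computed with Python 3.11.15, pandas 2.3.3 and scipy 1.17.1. Only the ratios of near to far density and of starts to ends were tested on simulated peaks. The shares were not.

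Members and lists were chosen with earlier results of these data known. Genes named are the 10 with most peaks at the start and at the end, up to 4 with most and 3 with none of each list, and 6 genes of the model, unless stated otherwise. Sequences are those of such genes whose window held a peak within 500 bp of the gene start. The CpG groups and the restriction to starts within 50 bp were chosen after seeing the data. Alternatives (closing section) changed the lines kept, peak position, distance limit, merging, gene set, region and CpG measure. List symbols were matched by symbol, then by synonym. Some genes that this rule names are not reported here.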

Additional observations from a re-analysis of the deposited data

Results flagged for a closer look

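Chromosome X lies outside the autosomal peaks above and also had such peaks. Of its 1104 distinct peaks, 33 (2.99%, Wilson 95% interval 2.14 to 4.17) lay within 500 bp of a gene boundary. The autosomal share was 2.92%, within that interval. The count was flagged by a limit of 3 counts, which is not a test. The 33 peaks touched 33 of 934 genes (3.53%, 2.53 to 4.92), against 25.3% of autosomal genes. Chromosome X had few peaks anywhere, 1104 of the 208468 distinct peaks, so its gene share does not single out boundaries. On chromosome Y, 0 of 176 peaks and 0 of 238 genes did.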

How the results depend on the processing

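The lists of the 2 leukaemia replicates are identical, so leaving out either one gave the values above, such as 2.922% of peaks and a ratio of 0.7106 of starts to ends. No paired analysis was possible because the lists are identical and no result comes from a test. A stricter score could not be tried, since the list has no score. Across 104 recomputed main results, 56 moved by less than the counting interval and 48 by more. Of the 56, 12 came from leaving out each replicate, and these could not move because the lists are identical. No ratio whose interval excluded 1 turned direction, while the ratio of near to far density outside genes, whose interval includes 1, fell on either side of it; the count of lists above the share of all genes stayed at 15 or within 1.5 times of it. Of 224 recomputed list shares, 188 stayed within their interval and 36 did not, most under a changed distance limit. The 188 include 25 from leaving out each replicate and 25 from keeping every line. None of these could move, since repeated lines do not change whether a gene has a peak.

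Keeping every line gave 3.217% of peaks and 2.373 times the autosomal density inside genes. With the nearest peak edge instead of the midpoint, the share was 3.141%, the density 2.158 (inside) and 2.082 (outside) times that of the autosomes and 0.7389 and 1.135 times that farther out, and 26.81%, 13.78% and 18.68% of genes had a peak at either boundary, the start and the end. In the same order, a limit of 250 bp gave 1.292%, 1.818, 1.614, 0.6429, 0.8477, 12.89%, 6.238% and 8.193%, with a ratio of starts to ends of 0.7813. A limit of 1000 bp gave 6.253%, 2.316, 2.069, 0.7688, 1.203, 41.64%, 26.89% and 29.34%, with 0.8181. All annotated genes gave 4.33%, 1.898, 1.509, 0.7879, 1.101, 20.48%, 13.58% and 15.95%, with 0.8522. Outside genes, near and far sequence thus changed order with the limit, from 1.034 as reported, with an interval that includes 1, to below 1 at 250 bp and above it at 1000 bp; the cause was not tested.

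Without merging genes, the share was 3.31%, the inside density 2.151 and 0.7357 times the 2 references, and 27.98% (either boundary) and 18.71% (end) of genes had a peak. Below 67 Mb alone these were 2.749% of peaks, 0.6664 for near over far inside genes, and 22.36%, 11.6% and 15.6% of genes. Sorting promoters by GC content instead of CpG put a peak in 1.553% of the highest group. Sorting by CpG number and using all promoter windows, both chosen after seeing the data, moved neither CpG result beyond its interval. Unknown read depth, 1 library and coarse positions limit every value; no absence of a peak shows absence of 5hmC.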
